A study of Lactuca sativa with 20 samples.

Results

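A set of 117 lettuce genes was higher after ACC and after the peptide CLE12p, each given alone. After ABA the genes stayed within a set limit of the control level. They were chosen from 37828 gene models, of which 20479 had a mean of at least 1 CPM (counts scaled to a library total of 1000000). The choice used the counts themselves. A gene was taken when its group mean, as log2(mean CPM + 1), was at least 0.5 above the mean of the 5 control libraries in ACC and in CLE12p and differed from it by less than 0.4 in ABA. Every ACC and every CLE12p library also had to lie above every control library. The levels in ACC, CLE12p, ABA and the controls are therefore a description of the choice and no finding. The libraries of CLE12p with ABA and CLE12p with ACC entered the choice through the mean over all 20 libraries alone, which had to be at least 1 CPM. Over the other 14 libraries 3 of the genes had less, namely Lsat_1_v5_gn_1_71921 (0.886 CPM), Lsat_1_v5_gn_2_62920 (0.987) and Lsat_1_v5_gn_7_27461 (0.827), which are named after their values were seen. They averaged 1.99, 2.57 and 3.20 CPM in CLE12p with ACC. With the minimum taken over the 14 libraries, these 3 left, 0 joined and 114 genes remained.

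Lettuce (*Lactuca sativa*) var. Little Gem was raised in continuous light on MS medium, and whole seedlings 4 days old were held for 2 h in a treatment solution before RNA was extracted. The solutions were water, 0.02% ethanol as the vehicle control, CLE12p, ACC or ABA given singly, and the peptide combined with either ABA or ACC, with each agent at 10 µM. Each group had 3 libraries, except ethanol with 2, which makes 20 libraries with totals from 18614220 to 27101622 counts. For the last group the series' design text has ABA and ACC together, and its libraries are grouped here by their own labels, which give the peptide and ACC. Whether replicates came from separate batches of seedlings is not stated, so the p-values measure a spread between libraries that may be partly technical. Whole seedlings mix all cell types, so more cells of a type and more RNA per cell cannot be told apart.

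ACC is the precursor that plants oxidise to ethylene. In *Arabidopsis*, ethylene binding to its receptors releases the membrane protein EIN2 from restraint by the kinase CTR1, and the transcription factors EIN3 and EIL1 then accumulate and switch on genes such as those of the ERF family. ABA, abscisic acid, is sensed by soluble receptors that inhibit protein phosphatases and so free the SnRK2 kinases. CLE peptides are short signals cut from secreted precursors and perceived at the cell surface by leucine-rich repeat receptor kinases such as CLV1 and the BAM proteins of *Arabidopsis*. CLE12p is the peptide named for the lettuce gene *LsCLE12*, which the series title links to delayed senescence, a process that ethylene and ABA are known to promote in many plants.

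The deposited table gives each gene by an identifier alone, and 0 of its 37828 identifiers matched the 51651 genes of the reference gene table. The genes could therefore not be ordered by role, and no name, function, position or sequence is given to any of them. A few identifiers are given per comparison, with their values.

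In the groups that chose them, the genes stood above the controls by moderate amounts. Against the controls, the median change on the log2(mean CPM + 1) scale was 0.87 in ACC (range 0.51 to 2.36), 0.84 in CLE12p (0.50 to 2.07) and -0.02 in ABA (-0.40 to 0.39). Over the 20479 genes with at least 1 CPM the corresponding medians were -0.02, -0.02 and 0.0034. The 1 CPM added in the choice shrinks changes at low levels. Lsat_1_v5_gn_2_62920 averaged 0.284 CPM in ABA and 0.580 in the controls, and Lsat_1_v5_gn_7_27461 averaged 0.281 and 0.512. For ABA against ethanol, edgeR's log2 fold change ran from -0.94 to 1.17 over the 117 genes. It adds no such 1 CPM, and its baseline is the 2 ethanol libraries instead of the 5 controls. Which of these differences widened the range was not tested. Lsat_1_v5_gn_6_12161, for example, averaged 2.40 CPM in ABA, 1.05 in ethanol and 1.84 in all controls. In the test across all genes (edgeR's quasi-likelihood test on counts, Benjamini-Hochberg adjusted p below 0.05), 103 of the 117 were called higher in ACC than in water, where 4.98% of 23413 genes tested were, and 91 were called higher in CLE12p than in water, where 4.35% were. All 117 passed the filter on low counts, with at least 473 counts over the 20 libraries. Nothing is read from these counts, since the choice of genes fixed them. The genes took between 1.06 and 242 CPM on average, with 21 under 5 CPM and 5 at 100 CPM or more. CPM is not divided by transcript length, so these levels do not rank the genes by transcript number.

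**Figure D1:**
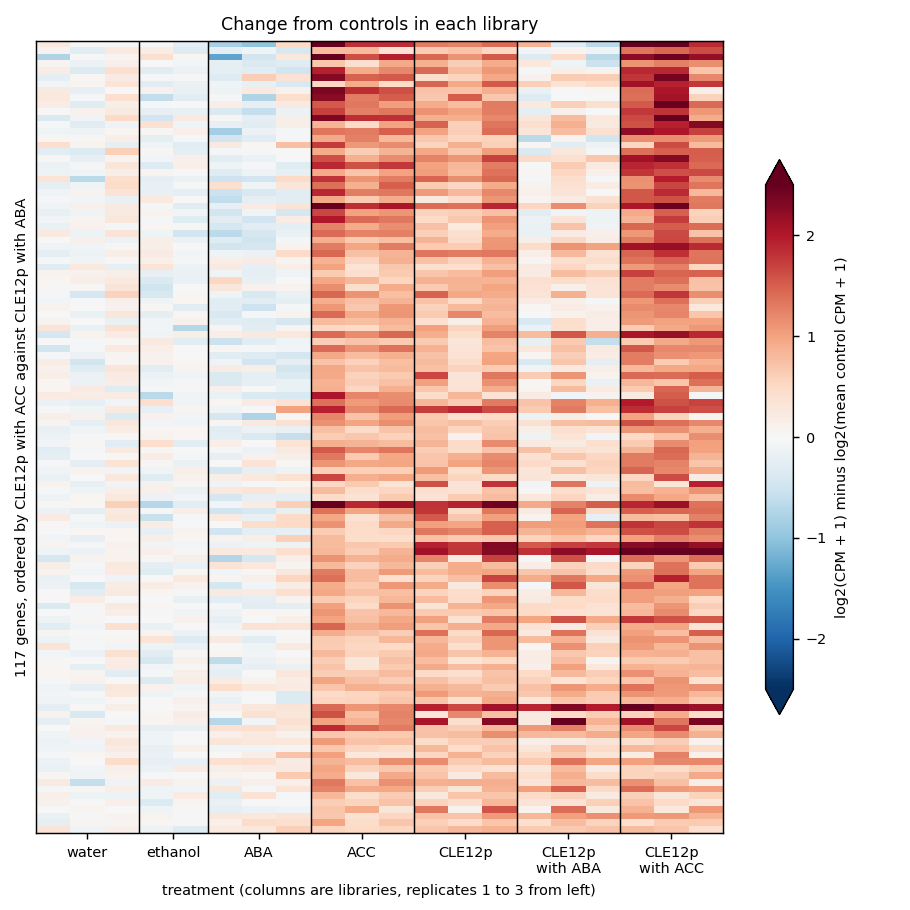
Change of each of the 117 genes (rows) from its control mean in each of the 20 libraries (columns, grouped by treatment), as log2(CPM + 1) minus log2(mean control CPM + 1), with colours saturating at 2.5 in either direction. Rows run from the highest to the lowest log2 fold change between CLE12p with ACC and CLE12p with ABA. The red of ACC and CLE12p was required by the choice of genes, while the columns of CLE12p with ABA and CLE12p with ACC entered it through the minimum mean level alone.

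The edge of the set was not sharp. The gene nearest inside the limit for ACC changed by 0.506 and the nearest outside by 0.498. For CLE12p these values were 0.505 and 0.499, and for the size of the ABA change 0.395 and 0.402. Failing a single criterion kept out 74 genes at the ACC limit, 46 at the CLE12p limit, 146 at the ABA limit, 56 at the requirement of no overlap with the controls and 3 at the minimum level.

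Lsat_1_v5_gn_6_12161 and Lsat_1_v5_gn_6_78761 had the highest average of the ACC and CLE12p changes. The former stood at 1.90, 1.92 and 3.27 CPM in water, 0.726 and 1.37 in ethanol, and 1.70, 2.24 and 3.27 in ABA. It reached 19.9, 9.48 and 11.4 CPM in ACC and 8.86, 9.71 and 14.2 in CLE12p. All 6 of these libraries lay above the 8 others without a combination. Lsat_1_v5_gn_6_78761 stood between 4.61 and 7.04 CPM over the controls, and at 42.8, 23.6 and 27.0 CPM in ACC and 17.0, 16.6 and 24.6 in CLE12p. At the other end, Lsat_1_v5_gn_2_101141 had 0.928 to 1.49 CPM over the controls and 1.79 to 2.42 in CLE12p. These groups did not overlap, but they lay close to each other.

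CLE12p with ACC was compared with CLE12p with ABA, whose libraries entered the choice through the minimum mean level alone. It asks whether genes picked for responding to ACC and not to ABA also separated the hormones when the peptide was present in both. The sample labels give no ethanol content for either combination. A difference in vehicle between them could therefore not be told apart from that in hormone. The genes were higher beside ACC. The fitted log2 fold change was above 0 for all 117, with a median of 0.82 (1.77-fold; interquartile range 0.47 to 1.27), beside a median of 0.0031 over all genes tested. Of the 117, 75 were called higher (64.1%) and 0 lower, compared with 11.7% of all genes called higher. Among the 114 genes that reached the minimum level without these 6 libraries, 73 were called higher and 0 lower, and the median was 0.80. An unadjusted p below 0.05 was found for 92 of the 117 (78.6%) and for 32.7% of all genes tested, in either direction, and DESeq2 called 76 higher and 0 lower. On CPM scaled to library totals alone, the group mean was higher beside ACC for 114 of the genes. For 72 of the 117 every library of CLE12p with ACC lay above every library of CLE12p with ABA, which held for 15.1% of genes with at least 1 CPM. The number of calls lay between 68 and 89 when any 1 of the 6 libraries was left out.

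**Figure D2:**
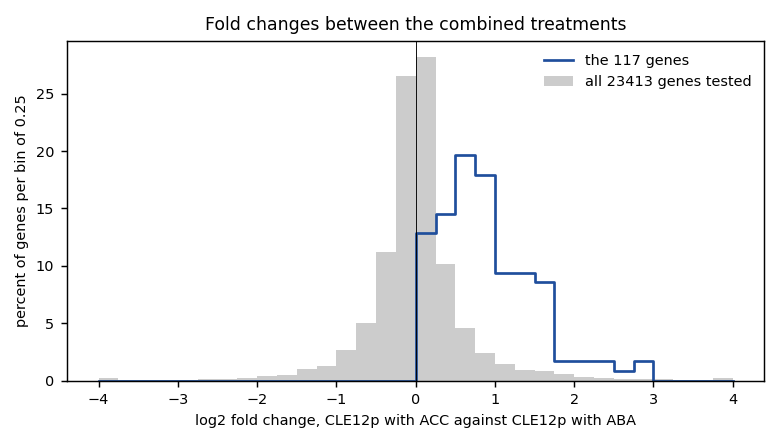
Distribution of the log2 fold change between CLE12p with ACC and CLE12p with ABA (horizontal axis), in percent of genes per bin of 0.25 (vertical axis), for all 23413 genes tested (grey bars) and the 117 genes (blue line). The 117 lie to the right of 0 with a median of 0.82, while all genes centre on 0.

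Among genes with no overlap between libraries and a mean of at least 1 log2 CPM, the highest fold changes were those of Lsat_1_v5_gn_4_165741 and Lsat_1_v5_gn_5_182420. Lsat_1_v5_gn_4_165741 stood at 14.1, 17.9 and 8.15 CPM in CLE12p with ACC and at 3.50, 1.05 and 0.596 CPM in CLE12p with ABA. The lowest library of the former was thus above the highest of the latter, and the log2 fold change was 2.98 ± 0.52 (SE, edgeR adjusted p = 1.58e-04). Its controls ran from 1.15 to 2.00 CPM, and its ABA libraries had 0.436, 0.274 and 2.56 CPM. CLE12p with ABA replicates 2 and 3 lay below all of its controls. Lsat_1_v5_gn_5_182420 stood at 26.1, 29.8 and 25.2 CPM beside ACC and at 3.59, 7.05 and 2.57 CPM beside ABA (2.66 ± 0.36; adjusted p = 6.83e-06). Its level beside ABA overlapped the controls, which ran from 2.41 to 6.54 CPM. At the lower end of the range, Lsat_1_v5_gn_5_115160 had 35.1, 32.6 and 26.7 CPM beside ACC and 31.9, 31.6 and 33.0 CPM beside ABA, and the groups overlapped (0.01 ± 0.11; adjusted p = 0.956). Lsat_1_v5_gn_5_115160 was also the 1 gene of the 117 called in ABA against ethanol (0.61 ± 0.13; adjusted p = 0.00247), a comparison in which 10.2% of all genes were called and which the choice of genes kept low. Its ethanol libraries, at 18.1 and 15.6 CPM, both lay below its 3 water libraries, the lowest of which had 18.5 CPM.

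CLE12p with ABA was set against ABA to ask whether the peptide still raised the genes when ABA was present. Of the 117, 35 were called higher (29.9%) and 0 lower, beside 2.65% of all genes called higher. The median log2 fold change was 0.57 (1.49-fold), and the value was above 0 for 112 genes. The rule held the ABA libraries near controls that were chosen low, which pushes this difference above 0, so the count is a description. It depended on single libraries. It was 17 without CLE12p with ABA replicate 2, 18 and 23 without ABA replicates 1 and 2, and 42 without CLE12p with ABA replicate 1, with a median from 0.43 to 0.66 over these and the other libraries left out.

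Lsat_1_v5_gn_7_55280 and Lsat_1_v5_gn_4_127960 had the highest fold changes in that comparison among genes named by the same rule. Lsat_1_v5_gn_7_55280 rose from 9.74, 10.1 and 9.92 CPM in ABA to 33.7, 37.9 and 39.7 CPM in CLE12p with ABA, a log2 fold change of 1.90 ± 0.12 (SE, edgeR adjusted p = 1.37e-09). Lsat_1_v5_gn_4_127960 rose from 32.1, 35.6 and 36.6 to 111, 149 and 118 CPM (1.86 ± 0.14; adjusted p = 1.34e-08). In both genes the groups were far apart. ACC alone moved the same genes less than the peptide did, to 17.9 to 19.7 CPM and 63.8 to 79.9 CPM, against 39.7 to 58.3 and 93.1 to 129 CPM in CLE12p (edgeR adjusted p of 6.84e-08 and 0.00256 for CLE12p against ACC).

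Beside ABA, 43 of the genes stood below the level of the peptide alone. Against CLE12p, CLE12p with ABA was called lower for these 43 of the 117 genes (36.8%) and higher for 0, where 7.93% of all genes were called lower. The median log2 fold change was -0.46, and 107 genes lay below 0. The labels give no ethanol content for either group. A difference in vehicle could therefore not be told apart from one due to ABA. CLE12p was chosen high by the rule, which also pushes the fold change below 0 without any effect of ABA, so the count is a description. It was 21 and 23 (22 lower and 1 higher) without CLE12p with ABA replicates 1 and 3, 53 without replicate 2 of that group, 28 and 23 without CLE12p replicates 1 and 3, and 28 in a fit of the 6 libraries alone. In mean CPM, CLE12p with ABA lay between ABA and CLE12p for 97 genes, at or above CLE12p for 14 and at or below ABA for 6. The difference between CLE12p with ABA and ABA was a median of 50.8% of the difference between CLE12p and the controls (interquartile range 25.2% to 69.0%, range -60.6% to 179%). The rule chose CLE12p high and held ABA near low controls, which bears on this percentage and on the order of the means. Neither was computed over all genes, so both are descriptions. The lower 43 and the higher 35 of the preceding comparison shared 8 genes, which stood above ABA and below CLE12p in the tests. A further 47 genes had neither call. The share of all genes with both calls or with neither was not counted, so this overlap is a description.

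Lsat_1_v5_gn_9_118581 and Lsat_1_v5_gn_5_182420 had the lowest fold changes in that comparison by the same rule. Lsat_1_v5_gn_9_118581 had 3.98, 2.20 and 2.92 CPM in CLE12p and 0.821, 1.05 and 0.963 CPM in CLE12p with ABA (-1.70 ± 0.43; SE; adjusted p = 0.00905, and 0.0525 without CLE12p replicate 1). Lsat_1_v5_gn_5_182420 had 14.5, 11.4 and 15.5 CPM in CLE12p, above all its libraries of CLE12p with ABA given earlier (-1.68 ± 0.36; adjusted p = 0.00219). Lsat_1_v5_gn_4_127960, with 113, 93.1 and 129 CPM in CLE12p, overlapped its libraries of CLE12p with ABA (0.14 ± 0.13; adjusted p = 0.574). The set thus held genes with a large difference and genes whose groups overlapped.

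Measured against both controls pooled, CLE12p with ABA was called higher for 57 of the 117 genes, where 11.5% of all genes were, and 10 genes had a mean at or below the controls. CLE12p with ACC was called higher for all 117, where 11.7% of all genes were. The medians were 0.54 and 1.35 on the log2 scale. The controls were chosen to lie below ACC and CLE12p, so both values are shifted upward by the choice, and the difference between them is the one tested above.

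**Figure D3:**
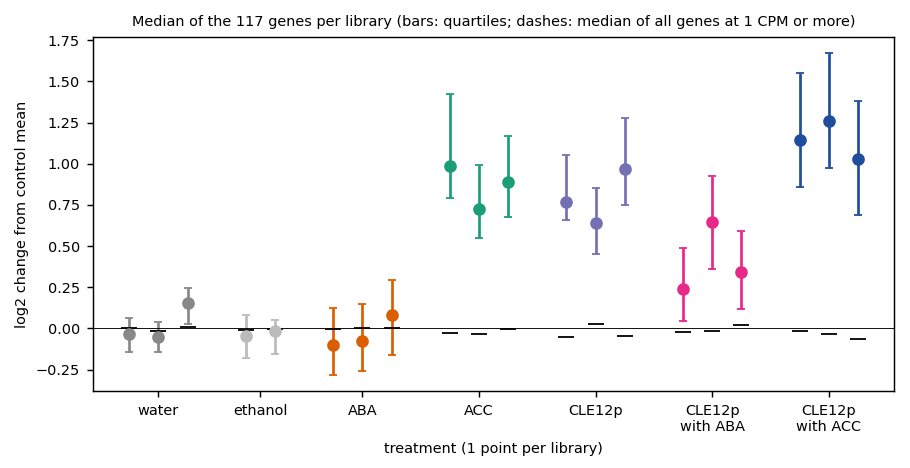
Median change of the 117 genes from the control mean in each library (points, log2 scale on the vertical axis) with the quartiles over the genes (bars), by treatment. Short dashes mark the median over all genes with at least 1 CPM. CLE12p with ABA replicate 2, at 0.647, lies above replicates 1 and 3 of its group, at 0.241 and 0.341, and all 3 libraries of CLE12p with ACC lie at 1.03 to 1.26.

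In some libraries many of the 117 genes were together the highest or the lowest of their group. CLE12p with ABA replicate 2 was the highest of its group for 87 of the 117 genes and replicate 1 the lowest for 73. The median change from the controls in that group was 0.241, 0.647 and 0.341 for replicates 1 to 3. In CLE12p with ACC, replicate 3 was the lowest for 72 genes, at a median of 1.03 beside 1.14 and 1.26. In ABA, replicate 3 was the highest for 67 genes. Among the groups that chose the genes, ACC replicate 2 was the lowest for 91 and CLE12p replicate 2 for 80, and water replicate 3 was the highest for 82. Other libraries were more even: ethanol replicate 1 was the highest for 53 and the lowest for 64, and CLE12p replicate 1 for 25 and 27. The same counts were not made over all genes. The median change over all genes stayed within -0.0646 and 0.0255 in every library. The median SD of log2(CPM + 1) over the 117 genes was 0.218 in CLE12p with ABA and 0.247 in CLE12p with ACC, beside 0.134 in each for all genes with at least 1 CPM.

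CLE12p with ACC was set against each agent alone to ask whether the treatments together went beyond either. For most genes the mean was higher in the combination. It lay above both ACC and CLE12p for 78 of the 117 genes, between them for 31 and below both for 8, and CLE12p with ACC was the highest of the 7 group means for 77. Against ACC, 26 genes were called higher and 1 lower, where 3.26% of all genes were called higher and 1.73% lower, and the median log2 fold change was 0.26. Against CLE12p, 24 were called higher and 0 lower, where 2.51% of all genes were called higher, and the median was 0.37. The calls of higher level were shared by 15 genes, while 82 genes had neither. This overlap and the order of the group means were counted among the 117 alone, with no share over all genes beside them, so they are descriptions. ACC and CLE12p were chosen high by the rule, which pushes both differences downward. The calls against ACC were 13 higher and 1 lower without ACC replicate 2, and 16 higher and 4 lower without CLE12p with ACC replicate 2. That against CLE12p was 9 without CLE12p replicate 2, 13 without CLE12p replicate 1, 11 without CLE12p with ACC replicate 2, and 13 in a fit of the 6 libraries alone.

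Lsat_1_v5_gn_5_127561 had the highest fold change against CLE12p among genes with no overlap and a mean of at least 1 log2 CPM. It stood at 14.6, 14.4 and 20.4 CPM in CLE12p, 23.3, 18.6 and 23.0 in ACC, and 41.5, 43.5 and 34.9 in CLE12p with ACC. The combination was above every library of either agent alone, by 1.29 ± 0.17 over CLE12p (SE; adjusted p = 1.01e-04) and 0.90 ± 0.16 over ACC (adjusted p = 0.00149) on the log2 scale. Lsat_1_v5_gn_6_8820 showed the same order, with 41.7, 29.9 and 52.7 CPM in CLE12p, 59.6, 50.3 and 60.1 in ACC, and 92.5, 102 and 82.6 in CLE12p with ACC (1.17 ± 0.19 over CLE12p, adjusted p = 9.51e-04, and 0.73 ± 0.19 over ACC, adjusted p = 0.0255). In both genes CLE12p with ABA overlapped CLE12p, at 12.6 to 20.6 and 38.0 to 65.0 CPM.

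Against ACC the highest fold changes by the same rule belonged to Lsat_1_v5_gn_3_25601 and Lsat_1_v5_gn_7_55280, which responded to the peptide more than to ACC. Lsat_1_v5_gn_3_25601 rose from 49.3, 42.4 and 50.4 CPM in ACC to 157, 172 and 187 CPM in CLE12p with ACC (1.88 ± 0.13; SE; adjusted p = 1.53e-09), and had 120, 96.6 and 137 CPM in CLE12p. Lsat_1_v5_gn_7_55280 rose from 19.7, 18.0 and 17.9 CPM to 56.2, 60.4 and 52.7 CPM (1.63 ± 0.11; adjusted p = 2.91e-09). The 1 gene called lower in the combination, Lsat_1_v5_gn_8_72880, had 21.1, 16.1 and 16.7 CPM in ACC and 12.8, 15.1 and 10.2 CPM in CLE12p with ACC (-0.48 ± 0.14; adjusted p = 0.0407). Its groups did not overlap, but the call was lost in 7 of 11 alternatives (adjusted p from 0.0170 to 0.234), among them each of the 3 ACC libraries and CLE12p with ACC replicates 1 and 3 left out.

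**Figure D4:**
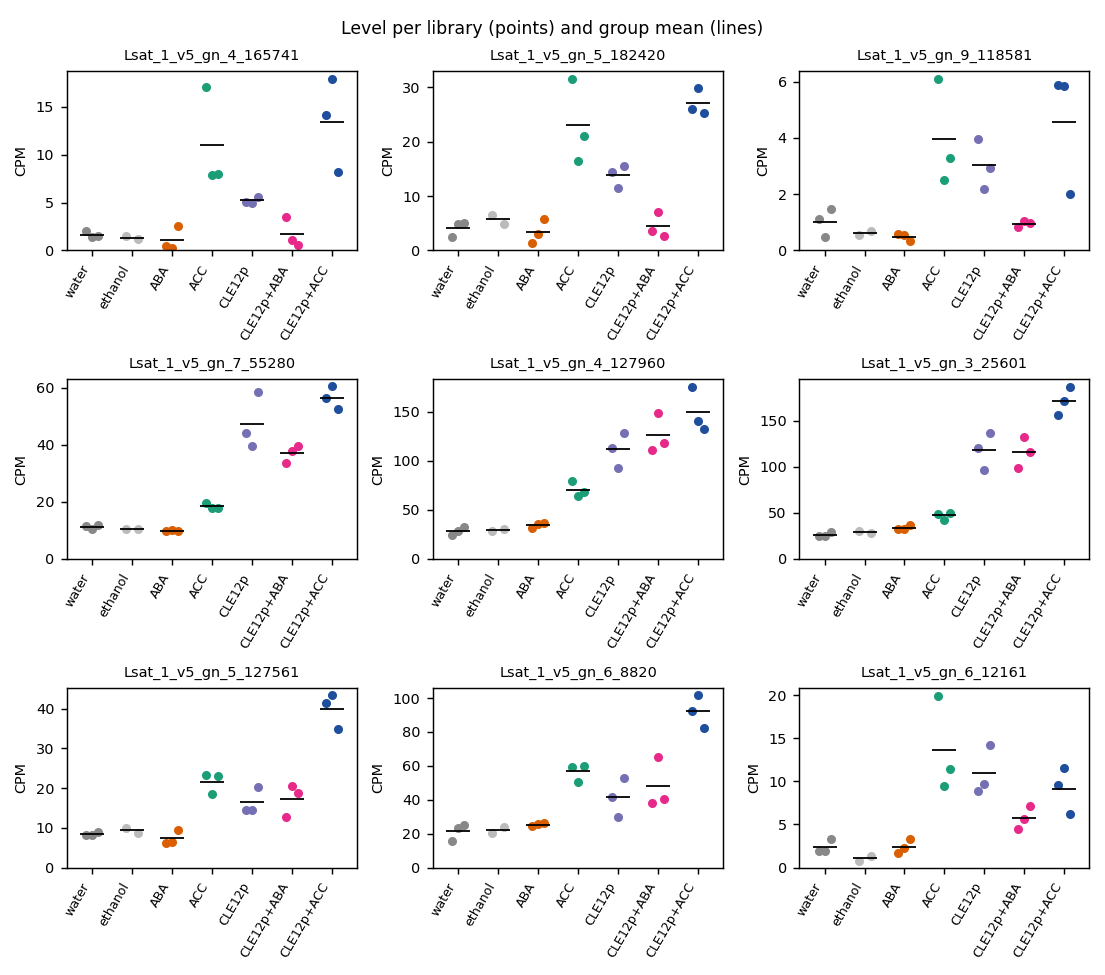
Levels in CPM (vertical axis, from 0) of 9 named genes in every library (points) with the group mean (lines), by treatment. In the top row CLE12p with ABA lies near the controls. In the middle row it lies well above ABA. Of the genes in the bottom row, the first 2 are highest in CLE12p with ACC, and Lsat_1_v5_gn_6_12161 is not.

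CLE12p was also compared with ACC directly, since the rule treated the agents alike and did not set one against the other. Both had been chosen at least 0.5 above the controls, so the rule used both sides of this comparison and the values are a description. ACC gave the higher mean CPM for 69 of the 117 genes, and the median log2 fold change of CLE12p against ACC was -0.06 (interquartile range -0.34 to 0.18). The test called 5 genes higher in CLE12p (4.27%) and 7 higher in ACC (5.98%), where 3.53% and 2.07% of all genes were called in these directions. The balance of calls depended on single libraries. The calls were 4 on the CLE12p side and 0 on the ACC side without ACC replicate 1, 10 and 1 without CLE12p replicate 2, 4 and 4 without CLE12p replicate 1, and 5 and 10 without CLE12p replicate 3. Over all the alternatives the count lay between 4 and 17.

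On the CLE12p side were Lsat_1_v5_gn_7_55280 and Lsat_1_v5_gn_3_25601, whose libraries are given above, with 44.1, 39.7 and 58.3 CPM in CLE12p for Lsat_1_v5_gn_7_55280. Their log2 fold changes were 1.36 ± 0.11 (SE; adjusted p = 6.84e-08) and 1.33 ± 0.12 (adjusted p = 3.86e-07). On the ACC side, Lsat_1_v5_gn_8_131900 had 12.9, 8.86 and 7.34 CPM in ACC and 3.49, 3.46 and 4.14 CPM in CLE12p (-1.38 ± 0.35; adjusted p = 0.0182). Lsat_1_v5_gn_5_7081 had 9.07, 7.08 and 7.75 CPM in ACC and 4.35, 3.80 and 4.66 CPM in CLE12p (-0.89 ± 0.21; adjusted p = 0.0108). The groups of both genes were separate, but both calls were lost without ACC replicate 1 (adjusted p of 0.118 and 0.0667) or CLE12p replicate 2 (0.0656 and 0.0571), and that of Lsat_1_v5_gn_8_131900 also without CLE12p replicate 1 (0.0690).

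**Figure D5:**
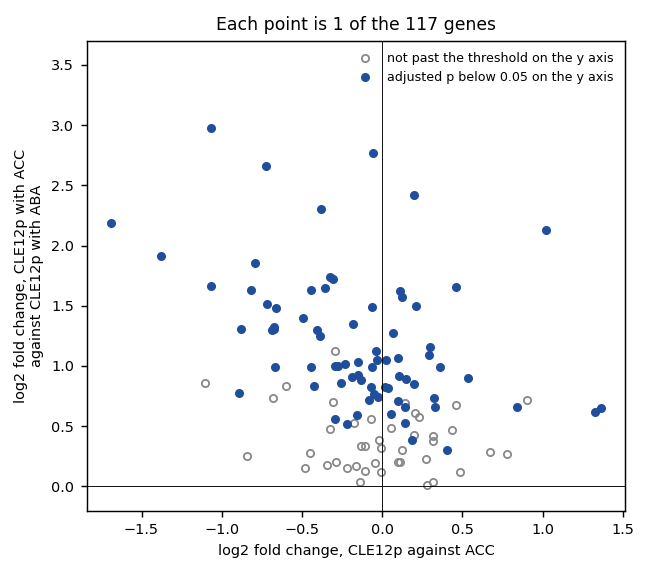
Each point is 1 of the 117 genes, with the log2 fold change of CLE12p against ACC on the horizontal axis and that of CLE12p with ACC against CLE12p with ABA on the vertical axis. Filled points passed the test on the vertical axis (75 genes). Genes to the left, which responded more to ACC, tend to lie higher, and Pearson's r is -0.37.

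Genes that responded more to ACC than to the peptide tended to differ more between the combinations. Over the 117 genes the fold change of CLE12p against ACC and that of CLE12p with ACC against CLE12p with ABA had a Pearson's r of -0.37 and a Spearman's rho of -0.35, beside -0.07 for both over 23413 genes. The 2 comparisons share no library, but genes are not independent replicates, and the limits of the choice bound the values on the horizontal axis. The difference between the combinations correlated with the ACC change from the controls (r = 0.51, rho = 0.48), weakly with the CLE12p change (0.13 and 0.19), and negatively with the ABA change (-0.41 and -0.45), although the last had been limited to less than 0.4 in either direction. For the correlations with the ACC, CLE12p and ABA changes no value over all genes was computed. Whether they are particular to the 117 genes was therefore not tested. All these values are descriptions of the set.

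The controls were compared because the choice pooled them. Ethanol against water called 0 of the 117 genes in edgeR and 0 in DESeq2, and 0% of all genes, with 5 of the 117 and 1251 of all genes at an unadjusted p below 0.05. The median log2 fold change was -0.07, and it lay between -0.09 and 0.03 when 1 control library was left out.

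The interaction of CLE12p with ACC, which is the peptide's log2 fold change in ACC minus that in water, was below 0 for 116 of the 117 genes, with a median of -0.67. The choice required high values in ACC and in CLE12p and low values in the controls, each of which pushes the interaction below 0, so its sign is no finding. It passed the test for Lsat_1_v5_gn_6_12161, which had 9.57, 11.5 and 6.25 CPM in CLE12p with ACC, the last below and the others within the range of its ACC libraries (-2.79 ± 0.43; SE; adjusted p = 0.0246; 0.00854% of all genes were called). That call was lost in 6 of 17 alternatives, 4 of which left out a library, namely water replicate 1, water replicate 2, ACC replicate 1 or, from the combination, replicate 3 (adjusted p from 0.0871 to 0.169). The number called among the 117 was 5 without CLE12p replicate 2 (29 over all genes) or CLE12p with ACC replicate 2 (8). It was 2 without water replicate 3 (4 over all genes), ACC replicate 2 (4) or CLE12p replicate 1 (3). DESeq2 called 11 (39 over all genes). The interaction of CLE12p with ABA called 0 of the 117 in edgeR and 0 in DESeq2, with 29 (24.8%) at an unadjusted p below 0.05, beside 7.85% of all genes, and a median of -0.39, which the choice also pushed below 0.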

How the data were processed

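The authors deposited unnormalized read counts, in whole numbers, for each gene model in each of the 20 libraries. Per the submitters' processing notes, STAR 2.7.10a was used. How reads were counted, with which strand setting and on which genome build and annotation, is not given in the sources used here, so reads of overlapping, antisense or near-identical genes cannot be told apart.

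The members and all comparisons were chosen with earlier results of these data known. The members were found on CPM from column totals, with the peptide group taken as the 3 libraries of CLE12p alone. The test was that of edgeR 4.0.16, run in R 4.3.3. filterByExpr with a minimum count of 10 kept 23413 genes, TMM factors lay between 0.961 and 1.03, and 7 group means were fitted to all 20 libraries with glmQLFit, so that groups share the estimate of spread. Tests were two-sided, with Benjamini-Hochberg adjustment over all genes tested and a threshold of 0.05. The standard error was taken as the size of the log2 fold change over the square root of F. ACC and CLE12p were set against water and ABA against ethanol, with both controls pooled as an alternative. The fit was tested on simulated data with a single spread and a single size of change, placed in well-counted genes alone. That test does not speak to genes with few counts or to smaller changes.

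Genes were named by rule: per comparison, at most 2 called members at each end of the fold changes, averaging 1 log2 CPM or more and with no overlap between libraries (all if 5 or fewer were called); and the 2 members with the highest average response, the 2 with the most counts and the 2 nearest inside a limit, of which those used in the text are given. Alternatives were RLE factors, DESeq2 1.42.0, no filter on low counts, a replicate block, only the libraries compared, and each library left out in turn; those for the interactions, and a minimum level over the 14 libraries of neither combination, were chosen after seeing the data. Gene lists of ethylene and CLE signalling, fixed by symbol, had 0 members, since no identifier matched a name.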

Additional observations from a re-analysis of the deposited data

Results flagged for a closer look

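The interaction of CLE12p with ACC at Lsat_1_v5_gn_6_12161 (-2.79 on the log2 scale) is listed because it passed the test of the interaction term. Its water, ACC and CLE12p libraries were used to choose the gene, in a way that pushes the value below 0, so it is a description and no finding, and the call was lost in 6 of 17 alternatives.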

How the results depend on the processing

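Applied to CPM scaled by TMM library sizes, the rule found 124 genes, of which 115 were among the 117. With the minimum level taken over the 14 libraries of neither combination, an alternative chosen after seeing the data, 114 genes were left and the calls were 73 for CLE12p with ACC against CLE12p with ABA and 41 for CLE12p with ABA against CLE12p, with the other counts as reported. Of 124 counts under an alternative, 97 stayed within 1.5 times the reported count. Counts of calls sum both directions here, so a change in their balance does not show. CLE12p against ACC, for example, is among the 97 without CLE12p replicate 2, with 10 higher and 1 lower in place of 5 and 7. These 97 include every count of ethanol against water and of the interaction of CLE12p with ABA, which were 0 throughout. With both controls pooled, ABA called 2 genes in place of 1. Fitting only the libraries compared gave 28 calls for CLE12p with ABA against CLE12p and 13 for CLE12p with ACC against CLE12p. The interaction of CLE12p with ACC called 5 genes without the filter on low counts, 11 in DESeq2 and 0 with the replicate block. Over all genes these calls were 10, 39 and 0. The causes were not tested. With 1 library left out, calls ranged from 68 to 89 for CLE12p with ACC against CLE12p with ABA, 17 to 42 for CLE12p with ABA against ABA, 14 to 25 for CLE12p with ACC against ACC, 21 to 53 for CLE12p with ABA against CLE12p, 9 to 32 for CLE12p with ACC against CLE12p, 4 to 15 for CLE12p against ACC, and 0 to 5 for the interaction of CLE12p with ACC. Ethanol against water and the interaction of CLE12p with ABA had 0 calls among the 117 under every alternative. Of the named genes, 168 values under an alternative kept their side of the threshold, 19 lost it and 0 changed sign.

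Replicate numbers are shared between groups, but the labels do not say that they pair libraries. Deviations of same-numbered libraries from their group means correlated between -0.22 and 0.11 over 20 pairs, and in 0 of 6 comparisons with 3 pairs did every library correlate best with its own number. With the replicate block the calls were 74 for CLE12p with ACC against CLE12p with ABA, 32 for CLE12p with ABA against ABA, 25 for CLE12p with ACC against ACC, 35 for CLE12p with ABA against CLE12p, 17 for CLE12p with ACC against CLE12p and 11 for CLE12p against ACC. Genes with few counts limit the set: the lowest had 473 counts over 20 libraries.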

Other observations

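Among the 117 genes, 6 pairs lay within 5 rows of each other in the deposited counts, and in 2 of these pairs the rows were adjacent. What the row order stands for is not given in the sources used here. The genes of these pairs were picked after their values were seen. Lsat_1_v5_gn_3_35341 and Lsat_1_v5_gn_3_35301 had like values, at 0.77 ± 0.18 and 0.74 ± 0.19 (SE, log2 scale) for CLE12p with ACC against CLE12p with ABA (adjusted p of 0.00335 and 0.00648 in edgeR). Lsat_1_v5_gn_5_18140 and Lsat_1_v5_gn_5_18180 stood at 0.52 ± 0.24 and 1.00 ± 0.16 (adjusted p of 0.125 and 6.83e-05), and whether the values within a pair differ was not tested.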
